A study of Homo sapiens with 6 samples.

Results

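The genes of cytosolic DNA sensing were followed as 7 members, found by their symbols among the 29845 genes of the count file. The members were MB21D1 (cGAS), IFI16 and ZBP1, which bind nucleic acids, TMEM173 (STING), an adaptor, the kinases TBK1 and IKBKE, and the nuclease TREX1. All were present in the count file and the FPKM file (fragments per kilobase of transcript, scaled to the mapped fragments of a library). RNA-seq was done on A549 cells, an established human lung epithelial cancer line, in 3 control libraries and 3 libraries of TFAM overexpression (TFAM-OE). Control cells were transfected with the empty pIRES-hrGFP vector, and TFAM-OE cells with the same vector carrying TFAM, a mitochondrial DNA-binding protein, with a FLAG tag at its end. Both groups therefore received plasmid DNA with a cationic lipid, and the sources used here name no sorting of transfected cells before RNA was extracted.

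In background, cGAS binds double-stranded DNA in the cytosol and makes the cyclic dinucleotide cGAMP. cGAMP binds STING on the endoplasmic reticulum, and STING brings TBK1 and its relative IKBKE (IKK-epsilon) to the transcription factor IRF3, which then switches on interferon genes. TREX1 removes cytosolic DNA and thus restrains the pathway, IFI16 is a DNA-binding protein of the PYHIN family and itself an interferon-induced gene, and ZBP1 senses Z-form nucleic acids and can start cell death through RIPK3 and MLKL. DNA that leaves mitochondria is a known ligand of cGAS, and TFAM packages mitochondrial DNA.

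In these libraries IFI16 fell strongly, TREX1 and TBK1 fell by less, MB21D1 and IKBKE did not pass the test, and TMEM173 and ZBP1 were barely transcribed in either group. IFI16 was at 22.0 ± 2.05 FPKM in the control libraries (SD, n = 3), as against 4.58 ± 0.576 FPKM where the label was TFAM-OE (SD, n = 3). Of the 5 members with enough reads to be tested, 3 were lower and 0 were higher at an adjusted p below 0.05 in edgeR's quasi-likelihood test, against 4.81% of all 16555 genes tested that were lower and 3.48% that were higher. At an unadjusted p below 0.05 edgeR had 1 member higher, IKBKE, and DESeq2 also called 1 higher. Adding the study's fold change threshold of 2 left 1 member, IFI16, where the background was 2.07% lower and 0.447% higher. The median log2 fold change of the 5 members was -0.47, and that of all genes tested was -0.008.

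The count files hold between 26650854 and 37321956 reads per library. The TFAM gene itself had 2555, 1878 and 2663 reads among the controls, as against 2291, 2808 and 2492 reads under the TFAM-OE label. The groups overlapped in CPM (reads scaled to the TMM-corrected size of each library), at 1.06 times the control (95% interval 0.914 to 1.23, edgeR adjusted p = 0.623), so the groups are named here by their labels. The study checked the overexpression at the protein level, by western blot against the FLAG tag, which is not analysed here. The epithelial keratins KRT7, KRT8, KRT18 and KRT19 were between 79.97 and 1490.51 FPKM in every library, while the epithelial adhesion genes EPCAM and CDH1 were at most 0.47 and 1.48 FPKM. Summed FPKM over 6 epithelial markers ran from 2598 to 2799 in the control and from 2451 to 2851 in the TFAM-OE-labelled libraries. Of 8 leukocyte markers, 5 had a value, and their sum ran from 2.50 to 3.40 FPKM in the control and from 1.24 to 1.95 FPKM in the other group. Of these CD68, at 1.37 to 1.65 FPKM in the control and 0.44 to 0.77 FPKM in the other group, was lower (log2 fold change -1.21, edgeR adjusted p = 0.0152), and the others with a value did not pass or were too low to test. The leukocyte genes PTPRC, CD3E and HLA-DRA were not analysed here. Summed endothelial markers (PECAM1, CDH5 and VWF) were at most 0.03 FPKM and summed fibroblast markers (COL1A1 and PDGFRB) at most 0.64 FPKM. The part of other cells in the results was not tested. In bulk RNA, fewer cells of a kind and less RNA per cell cannot be told apart.

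Sequences around transcript starts are shown because most of these genes belong to, or feed, the interferon response. RefSeq windows from 250 bases before to 50 bases after a transcript start (GRCh38.p14) were given for 4 of the 7 members, IFI16, TREX1, TBK1 and IKBKE, with 2 windows for IFI16. They were searched on both strands for 4 motifs, chosen after earlier results of these data and the windows themselves had been seen. These were the core bound by interferon regulatory factors (IRF core, AANNGAAA), the longer interferon-stimulated response element (ISRE, GAAANNGAAA, which always contains an IRF core), the STAT site GAS (TTCNNNGAA) and a kappaB-type site (GGGANNNNCC). Over all 35116 windows of the table, 22.8% held an IRF core, 3.57% an ISRE, 7.66% a GAS and 25.6% a kappaB-type site. The matches are in capitals below, each window is on the plus strand, and the transcript starts after base 250.
IFI16, chr1:159009657-159009956: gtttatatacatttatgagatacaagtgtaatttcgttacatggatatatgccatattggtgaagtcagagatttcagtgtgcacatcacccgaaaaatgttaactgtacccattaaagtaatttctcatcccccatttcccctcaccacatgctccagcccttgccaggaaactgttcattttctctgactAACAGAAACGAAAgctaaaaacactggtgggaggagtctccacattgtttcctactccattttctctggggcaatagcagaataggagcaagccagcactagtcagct
TREX1, chr3:48465580-48465879: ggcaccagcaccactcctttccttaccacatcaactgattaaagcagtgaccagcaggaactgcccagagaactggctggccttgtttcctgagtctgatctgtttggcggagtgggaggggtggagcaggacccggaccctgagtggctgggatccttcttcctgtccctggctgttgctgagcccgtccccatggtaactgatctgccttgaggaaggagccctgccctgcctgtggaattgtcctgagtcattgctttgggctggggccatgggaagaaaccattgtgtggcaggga
TBK1, chr12:64451870-64452169: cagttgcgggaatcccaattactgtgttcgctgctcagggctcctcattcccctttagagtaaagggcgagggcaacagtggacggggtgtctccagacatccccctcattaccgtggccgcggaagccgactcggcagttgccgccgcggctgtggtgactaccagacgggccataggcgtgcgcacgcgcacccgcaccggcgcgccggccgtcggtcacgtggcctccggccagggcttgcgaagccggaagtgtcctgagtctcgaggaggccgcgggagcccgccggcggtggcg
IKBKE, chr1:206470226-206470525: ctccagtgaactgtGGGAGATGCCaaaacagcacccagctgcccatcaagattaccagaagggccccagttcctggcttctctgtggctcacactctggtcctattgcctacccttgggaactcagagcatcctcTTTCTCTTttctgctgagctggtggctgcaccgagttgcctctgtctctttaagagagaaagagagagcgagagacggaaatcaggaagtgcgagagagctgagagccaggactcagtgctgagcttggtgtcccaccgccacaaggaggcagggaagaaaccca

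The IFI16 window held a pair of overlapping IRF cores, AACAGAAA and AAACGAAA, which begin 58 and 53 bases before the start. The other IFI16 window (chr1:159008741-159009040) held 1 IRF core on the opposite strand. IKBKE had 1 IRF core on the opposite strand and 1 kappaB-type match. No match to any of the 4 motifs was in the TREX1 or TBK1 windows. No ISRE and no GAS was in any of the 5 windows. IRF cores are common among all windows, and these matches describe letters only.

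The DNA-binding members were led by IFI16. Its reads were 2710, 2007 and 2594 in the control libraries and 600, 592 and 395 under the TFAM-OE label. In CPM these were 80.6, 74.9 and 70.7 against 18.8, 16.3 and 13.2. Every control library was far above every library of the other group. The log2 fold change was -2.23 (standard error 0.14, edgeR adjusted p = 2.3e-05), a level 4.69-fold higher in the control with a 95% interval from 3.78 to 5.82. IFI16 passed the test in all 17 alternative analyses, with log2 fold changes from -2.35 to -2.04. By FPKM, IFI16 stood above 88.3% to 90.4% of the genes with a value above 0 in the control libraries, and above 65.6% to 71.2% under the TFAM-OE label. The gene (ENSG00000163565.18, chromosome 1, 158999968 to 159055155, plus strand, GENCODE 44) shares 8.03% of its exonic bases with PYDC5 on the opposite strand, and the use of strand in counting is not given in the sources used here.

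MB21D1, the gene of cGAS (ENSG00000164430.15, chromosome 6, 73413515 to 73452297, minus strand), had 24.6, 24.2 and 25.3 CPM among the controls, compared with 23.6, 20.4 and 18.8 CPM in the TFAM-OE-labelled libraries. The groups did not overlap, but they were close, and TFAM-OE replicate 1 lay just under the lowest control. The log2 fold change was -0.24 (standard error 0.12, edgeR adjusted p = 0.239), and the 95% interval of the fold change ran from 0.707 to 1.02. MB21D1 passed in 0 of 17 alternatives, with adjusted p-values from 0.105 to 0.528.

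ZBP1 (ENSG00000124256.14, chromosome 20, 57603846 to 57620576, minus strand) had 7, 3 and 14 reads among the controls, as against 2, 4 and 1 reads under the TFAM-OE label. The read counts overlapped, and after scaling the lowest control (0.112 CPM) and the highest TFAM-OE library (0.110 CPM) were almost equal. Over each group this was 24 reads against 7, a ratio of 0.288 with an exact 95% interval from 0.105 to 0.689 that covers counting error only. The gene was below the read minimum of the main analysis. When every gene with a read was tested by edgeR, its log2 fold change was -1.71 (standard error 0.76, adjusted p = 0.172), where 4.98% of genes were lower and 3.46% higher.

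TMEM173, the gene of the adaptor STING (ENSG00000184584.12, chromosome 5, 139475533 to 139482935, minus strand), had 4, 5 and 4 reads among the controls, as against 4, 8 and 7 reads under the TFAM-OE label. Both groups lay at the same very low level, between 0.05 and 0.12 FPKM, and overlapped. Over each group this was 13 reads against 19, a ratio of 1.44 with an exact 95% interval from 0.676 to 3.18 for counting error only. For a single library, 4 reads allow a true mean between 1.09 and 10.2 reads. TMEM173 was also below the read minimum, and the test on every gene with a read gave an edgeR adjusted p of 0.702. The interval is wide, and a difference between the groups was not detectable at this depth.

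**Figure D1:**
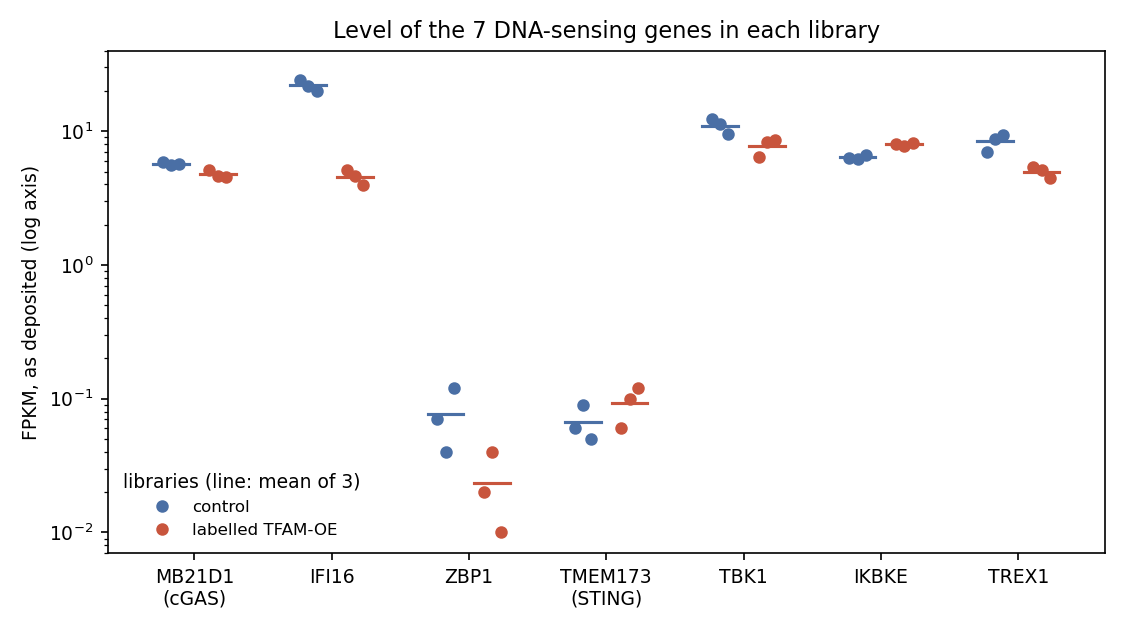
FPKM of the 7 members in each library on a log axis, with control libraries in blue, libraries labelled TFAM-OE in red and lines at the mean of 3. IFI16 drops from 22.0 to 4.58 FPKM on average, and ZBP1 and TMEM173 lie between 0.01 and 0.12 FPKM in every library.

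The kinases below STING differed in direction, with TBK1 past the test and IKBKE short of it. TBK1 (ENSG00000183735.9, chromosome 12, 64452090 to 64502114, plus strand) phosphorylates STING and IRF3, and had 45.5, 43.2 and 37.1 CPM in the control against 26.3, 32.6 and 31.7 CPM. All libraries labelled TFAM-OE were below all controls, with TFAM-OE replicate 1 the lowest. Its log2 fold change was -0.47 (standard error 0.13, edgeR adjusted p = 0.0468), or 0.720 times the control (95% interval 0.594 to 0.874). The call was close to the threshold and held in 9 of 17 alternatives. With each library left out in turn, TBK1 stayed lower, with log2 fold changes from -0.55 to -0.38. The edgeR adjusted p missed the threshold without control replicate 1 (-0.40, adjusted p = 0.200), control replicate 2 (-0.45, 0.180), TFAM-OE replicate 1 (-0.38, 0.0676) or TFAM-OE replicate 2 (-0.53, 0.131).

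IKBKE (ENSG00000263528.7, chromosome 1, 206470476 to 206496889, plus strand), the inducible relative of TBK1, had 23.9, 24.7 and 26.8 CPM among the controls, compared with 33.6, 31.1 and 30.9 CPM in the TFAM-OE-labelled libraries. Here every library labelled TFAM-OE was above every control, the reverse of TBK1. The log2 fold change was 0.34 (standard error 0.11), and the edgeR adjusted p of 0.0743 missed the threshold. The 95% interval of the fold change was 1.08 to 1.49. IKBKE passed in 2 of 17 alternatives, with DESeq2 (adjusted p = 0.0426) and with edgeR without TFAM-OE replicate 3 (adjusted p = 0.0360), and its log2 fold change lay between 0.28 and 0.39 in all of them.

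The balance of the kinases was also read inside each library, where scaling between libraries plays no part. In FPKM, every library labelled TFAM-OE was above every control for IKBKE and below every control for TBK1. The separation of their ratio follows from this, so the ratio is a description and its test adds no support. The ratio of IKBKE to TBK1 in FPKM was 0.509, 0.553 and 0.700 in the control and 1.24, 0.924 and 0.943 in the TFAM-OE-labelled libraries. Per transcript length, TBK1 was the more abundant kinase in all control libraries. In the other group IKBKE was above TBK1 in TFAM-OE replicate 1 (1.24), and TBK1 was slightly above IKBKE in the remaining replicates (0.924 and 0.943). The mean ratio was 0.587 ± 0.10 (SD, n = 3) against 1.04 ± 0.177 (SD, n = 3), with no overlap (exact permutation test on the log2 ratio, two-sided p = 0.1, which is the minimum for groups of 3, and 0.1 after adjustment over 3 ratios).

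TREX1, the main cytosolic 3′ DNA exonuclease (ENSG00000213689.9, chromosome 3, 48465811 to 48467645, plus strand), had 586, 610 and 908 reads among the controls, as against 469, 489 and 330 reads under the TFAM-OE label. In CPM these were 17.4, 22.8 and 24.8 against 14.7, 13.4 and 11.0. The groups did not overlap, and control replicate 1 was the nearest to the lower group. The log2 fold change was -0.73 (standard error 0.16, edgeR adjusted p = 0.0260), or 0.603 times the control (95% interval 0.468 to 0.776). The call held in 13 of 17 alternatives. With each library left out in turn, TREX1 was lower by log2 fold changes from -0.86 to -0.62. The adjusted p of edgeR missed the threshold without control replicate 2 (-0.69, adjusted p = 0.122), control replicate 3 (-0.62, 0.0760) or TFAM-OE replicate 2 (-0.75, 0.108).

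All 1448 exonic bases of TREX1 in GENCODE 44 (100%) also lie in exons of ATRIP on the same strand, so how reads were divided between both genes is uncertain. ATRIP, a partner of the ATR checkpoint kinase, had 13.1, 14.4 and 14.9 CPM among the controls, compared with 15.7, 15.1 and 15.3 CPM in the TFAM-OE-labelled libraries. Its log2 fold change was 0.12 (standard error 0.12, edgeR adjusted p = 0.554). ATRIP was not lower in any library labelled TFAM-OE than in a control, whereas TREX1 was lower in all of them.

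**Figure D2:**
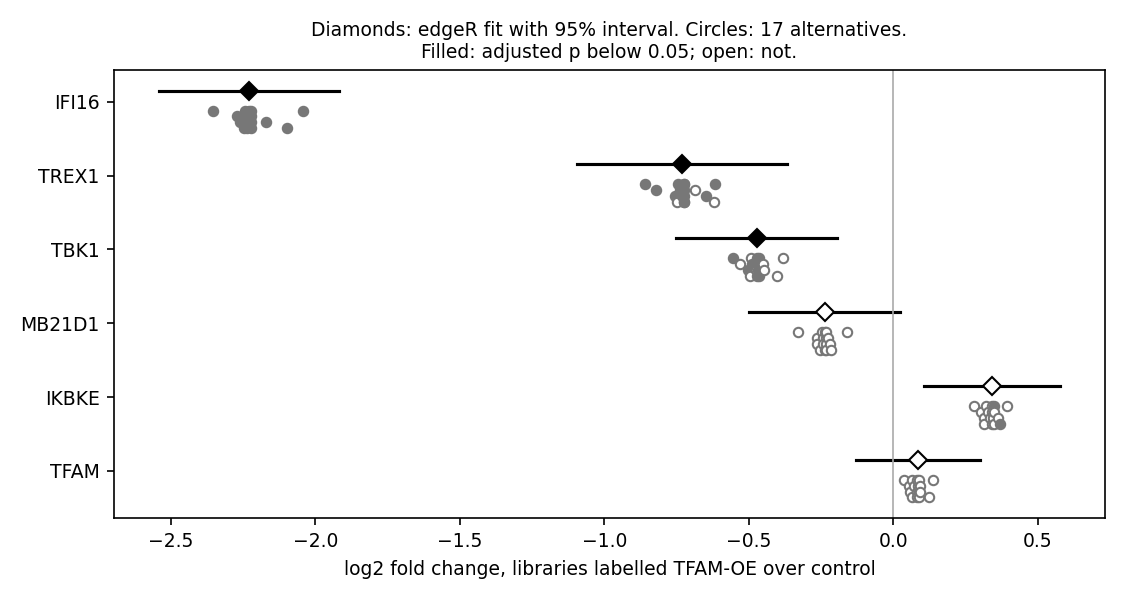
Log2 fold changes of the 5 members tested and of TFAM, with the edgeR estimate and its 95% interval as a diamond and the 17 alternative analyses as circles that partly overlap, filled where the adjusted p was below 0.05. IFI16 is filled throughout, TREX1 in 13 and TBK1 in 9 of 17, while IKBKE lies right of 0 in every analysis.

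In 5 of 5 members tested the groups did not overlap in CPM, 4 of them lower and 1, IKBKE, higher in the TFAM-OE-labelled libraries. Over all genes tested, 15.8% were separated with lower values and 15.8% with higher values. For MB21D1 and IKBKE such a separation came with a change that did not pass the test.

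Compared per transcript length, the order of the members changed between the groups. In the control it was IFI16, TBK1, TREX1, IKBKE, MB21D1 and then the pair near 0. IFI16 (20.13 to 24.20 FPKM) stood clear of TBK1 (9.51 to 12.31 FPKM), whose lowest library nearly met the highest of TREX1 (6.98 to 9.41 FPKM). IKBKE (6.23 to 6.66 FPKM) lay below every TREX1 value, and MB21D1 (5.57 to 5.86 FPKM) just below IKBKE. ZBP1 and TMEM173 overlapped each other.

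In the libraries labelled TFAM-OE the 5 measurable members fell into a narrower band, from 3.99 to 8.66 FPKM. IKBKE (7.71 to 8.17 FPKM) and TBK1 (6.47 to 8.66 FPKM) overlapped at the top. TREX1 (4.45 to 5.37 FPKM), MB21D1 (4.54 to 5.12 FPKM) and IFI16 (3.99 to 5.14 FPKM) overlapped below them. The ratio of IFI16 to MB21D1 was 4.13, 3.89 and 3.51 in the control and 1.00, 1.00 and 0.879 in the other group, without overlap. The ratio of TREX1 to MB21D1 was 1.19, 1.58 and 1.64 against 1.05, 1.11 and 0.980, also without overlap, though control replicate 1 was near the other group. Exact permutation tests gave a two-sided p of 0.1 for each ratio, the minimum for groups of this size. The falls of IFI16 and TREX1 are given above, so both ratios are descriptions and their tests add no support.

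**Figure D3:**
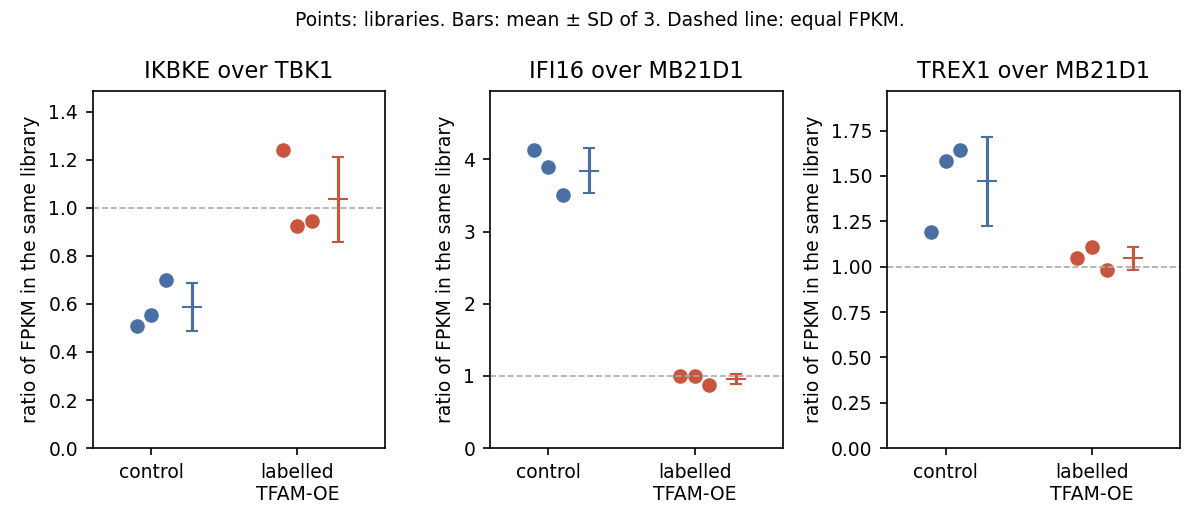
Ratios of FPKM between pairs of members in the same library, with points for libraries, bars for the mean ± SD of 3 and a dashed line at equal FPKM. IKBKE over TBK1 averages 0.587 in the control and 1.04 in the TFAM-OE-labelled libraries, and IFI16 over MB21D1 averages 3.85 and 0.962.

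Correlations over the 6 libraries carry both the difference between the groups and the spread within them. Among the 4 members with lower CPM in the TFAM-OE-labelled libraries, Pearson's r between pairs ran from 0.458 (MB21D1 and TBK1) to 0.893 (IFI16 and TREX1). Between IKBKE, which had higher CPM there, and these members it ran from -0.984 (TBK1) to -0.583 (MB21D1). As the members were grouped here by direction, the signs are a description only. The genes most like each member in log2 CPM were taken from 13978 other genes with a mean of at least 1 CPM. For IFI16 they were CXCL11, TMEM140 and XAF1 (Pearson's r = 0.9998, 0.9991 and 0.9987). For TREX1 they were IFI35, MYD88 and ZFAND1 (0.995, 0.994 and 0.992). IFI35 and CXCL11 are interferon-induced genes, with log2 fold changes of -1.29 and -2.85. For TBK1 they were NOV, USP15 and RPAP2 (0.997, 0.996 and 0.996), for IKBKE TRAIP, ASL and MOCS1 (0.999, 0.998 and 0.996), and for MB21D1 MYO5B, BNIP1 and FOXA2 (0.996, 0.995 and 0.995).

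Around the members, 7 lists of other genes of the pathway were read in the same test. Of 124 genes listed, 121 were in the count file and 116 had enough reads, and 23 of those (19.8%) were lower and 4 (3.45%) higher, with a median log2 fold change of -0.06. Over all genes tested these shares were 4.81% and 3.48%, so the share that was higher was that of the background. Leaving out 1 library moved the count of higher genes between 1 (without control replicate 1, control replicate 2 or TFAM-OE replicate 2) and 10 (without TFAM-OE replicate 3). Most of the lower genes, 16, were interferons and genes of the early response. The list of these was written with the fall of such genes in these data already known. The share of 19.8% therefore does not describe the rest of the pathway. Every other list had between 0 and 2 genes lower.

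Among DNA sensors other than the members and their partners, 1 of 25 tested was higher by edgeR (4%, near the 3.48% of all genes tested). None was lower (0 genes), and the median was -0.04. At an unadjusted p below 0.05 edgeR had 1 gene lower, while DESeq2 called 0 lower and 1 higher. HMGB2, a chromatin protein that binds bent DNA, rose by 0.52 on the log2 scale (standard error 0.10, edgeR adjusted p = 0.0168). Its relative HMGB1 was at 0.23 and did not pass (edgeR adjusted p = 0.150). The sensors of broken DNA XRCC5, XRCC6, MRE11A and PRKDC lay between 0.04 and 0.32 without passing, while RAD50, the partner of MRE11A, was at -0.37 (edgeR adjusted p = 0.245), and DDX41 was at -0.09. TLR9, the sensor of DNA in endosomes, had 11, 4 and 7 reads among the controls, as against 1, 1 and 0 reads in the other group, too few to be kept in the main analysis. Tested with every gene that had a read, it passed (log2 fold change -3.24, standard error 1.01, edgeR adjusted p = 0.0204), and its level was at most 0.07 FPKM. In that wider test 4.98% of genes were lower. In simulated counts 16.9% of the calls of the wider test were false. Only genes above the read minimum were changed there, so this share does not rate TLR9. With 0 to 11 reads per library, the call for TLR9 is uncertain. AIM2 and MNDA, relatives of IFI16, were not analysed here.

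Among nucleases and restraints of nucleic acids, 2 of 13 were lower (15.4%) and 1 was higher (7.69%), with a median of 0.07. Over all genes tested these shares were 4.81% and 3.48%, and those of so short a list rest on few genes. ATRIP was on this list only as the neighbour of TREX1. SAMHD1, which breaks down deoxynucleotides, fell from 18.51 to 6.81 FPKM on average (log2 fold change -1.42, standard error 0.09, edgeR adjusted p = 3.08e-05). ADAR, which edits double-stranded RNA, fell by 0.56 on the log2 scale (edgeR adjusted p = 0.0279). DNASE1L1, a DNase I relative, rose from 4.81 to 9.49 FPKM (log2 fold change 1.00, edgeR adjusted p = 0.00231). The 3 subunits of RNase H2 were between -0.02 and 0.34, and none passed. The nucleases TREX1 and DNASE1L1 differed in direction, and DNASE2, the lysosomal DNase, had a log2 fold change of -0.03.

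Among genes that control STING or carry cGAMP, 1 of 23 was lower (4.35%, near the 4.81% of all genes tested) and 2 were higher (8.70%, where all genes had 3.48%), with a median of -0.04. USP18, an interferon-induced protease of ISG15, fell by 1.76 on the log2 scale (standard error 0.20, edgeR adjusted p = 0.00100). ULK1, an autophagy kinase that phosphorylates STING, and RNF5, a ubiquitin ligase for STING, rose by log2 fold changes of 0.52 and 0.42 (edgeR adjusted p = 0.0118 and 0.0447). The cGAMP importer SLC19A1 was at 0.33 without passing, and the exporter ABCC1 at -0.26.

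Among adaptors and effectors of the kinases, 2 of 20 were lower (10%, where all genes tested had 4.81%) and 0 were higher by edgeR, with a median of -0.07. At an unadjusted p below 0.05 edgeR had 3 higher, and DESeq2 called 1 higher. IRF7, the interferon-induced relative of IRF3, fell from 55.9 to 14.3 FPKM on average (log2 fold change -1.93, standard error 0.23, edgeR adjusted p = 0.00132). AZI2 (NAP1), an adaptor that binds TBK1, fell by 0.55 on the log2 scale (edgeR adjusted p = 0.0170), and the adaptor TANK was at -0.24 without passing. IRF3 had 2863, 2652 and 3712 reads among the controls, as against 4117, 4215 and 3115 in the other group, a log2 fold change of 0.29 (standard error 0.11, edgeR adjusted p = 0.143), and in CPM the groups did not overlap. RELA and TRAF3 were at -0.31 and 0.13, and MAVS, the adaptor of the RNA sensors that also feed TBK1, at 0.40 (edgeR adjusted p = 0.0609).

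Of 5 partners of ZBP1 tested, 1 was lower and 0 were higher by edgeR. This is 20% lower, where all genes tested had 4.81%, but it rests on 1 gene of a short list. None was higher at an unadjusted p below 0.05 (0 genes) or with DESeq2 (0 genes). MLKL, the executor of necroptosis, fell from 12.4 to 8.76 FPKM on average (log2 fold change -0.47, standard error 0.10, edgeR adjusted p = 0.0200). RIPK1 was at -0.09, CASP8 at 0.05 and FADD at -0.08 without passing, and RIPK3 was not analysed here.

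All 16 of the interferons and early response genes with enough reads were lower, where 4.81% of all genes tested were, and their median was -2.83 on the log2 scale. None was higher by edgeR, at an unadjusted p below 0.05 or with DESeq2 (0 genes each). IFNB1 had 174, 121 and 132 reads among the controls, as against 12, 5 and 5 reads under the TFAM-OE label, a log2 fold change of -4.28 (standard error 0.32, edgeR adjusted p = 7.22e-05). RSAD2 and IFNL1 were at -3.78 and -3.87. IFNL3 and IFNL2 are near-identical copies that could have shared reads. The smallest changes were those of PMAIP1 (-0.95), TNFAIP3 (-0.97) and IL6 (-1.19), and TNF, with 3 to 6 reads in every library, was not tested. IFI16, at -2.23, lay within the range of this list, and TREX1, at -0.73, and TBK1, at -0.47, lay outside it. The list was written with the fall of such genes in these data already known.

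Among 14 genes that package mitochondrial DNA or let it out, 1 was lower and 0 were higher by edgeR, with a median of 0.08. The share lower was 7.14%, where all genes tested had 4.81%. At an unadjusted p below 0.05 edgeR had 1 higher, and DESeq2 called 0. The gene that passed was CMPK2, a mitochondrial nucleotide kinase that is also interferon-induced (log2 fold change -3.09, standard error 0.25, edgeR adjusted p = 1.13e-04). The pore genes BAX, BAK1, VDAC1, VDAC2 and VDAC3 lay between -0.20 and 0.30, and the DNA polymerase POLG and the helicase TWNK, listed as C10orf2, were at -0.22 and -0.09. None of these passed the test by edgeR.

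**Figure D4:**
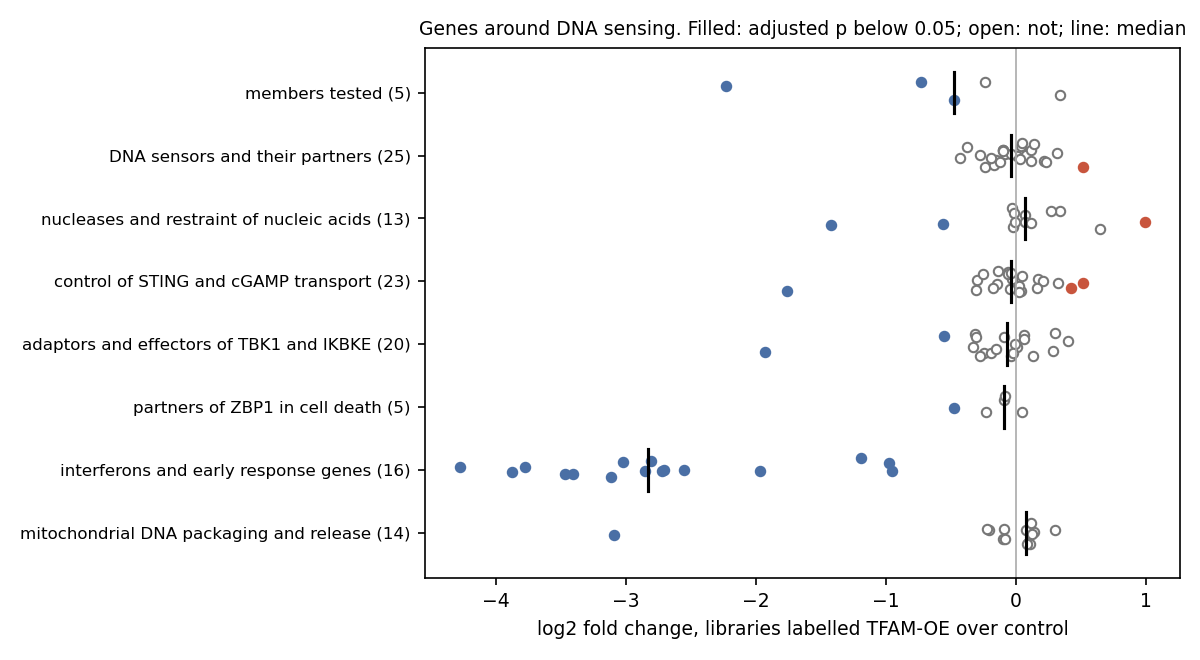
Log2 fold changes of the 5 members tested and of the genes of 7 lists, 1 point a gene, with a line at each median and the number tested in parentheses. All 16 interferon and early response genes lie at -0.95 or lower, while the medians of the other 6 lists lie between -0.09 and 0.08.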

How the data were processed

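RNA-seq of A549 cells covered 3 control libraries and 3 libraries of TFAM overexpression, prepared with a stranded mRNA kit. The authors trimmed reads with the FASTX-Toolkit, aligned them to GRCh38 with TopHat2, took uniquely mapped reads for gene counts, and derived FPKM from them. The counting tool, its annotation release and its strand setting were not given in the sources used here. The deposited counts were raw whole numbers, and the FPKM values deposited by the authors had 2 decimals. The main test on counts was edgeR's (4.0.16, under R 4.3.3) quasi-likelihood test, two-sided, after TMM scaling, over the 16555 genes kept by filterByExpr, with Benjamini-Hochberg adjustment over all of them. The filter was used because, in simulated counts of this comparison, 7.1% of calls were false with it (16512 genes) and 16.9% with every gene that had a read (28288 genes). With it, 87.2% of 195 changed genes were recovered. The simulation was a single draw, with fewer changed genes than were called in the data. All changed genes were drawn from those that the filter keeps in the data. Any other gene called could only be a false call, so part of the difference between both shares was built in. The share of false calls depends on that number, so these shares describe the simulated setting only. Intervals are at 95%, from the edgeR standard error, and intervals on reads cover counting error only.

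The 17 alternatives were limma-trend on log2(FPKM + 0.1) and log2(FPKM + 1), limma-voom (limma 3.58.1), DESeq2 (1.42.0), the exact test of edgeR, other scalings and gene filters, a replicate block and each library left out. No deposited value column was left unused (0 columns). The members, lists and motifs were chosen with earlier results of these data known. Besides the members, the named genes are up to 4 genes per list past the threshold with the largest change, 10 genes of central roles, the 3 genes most like each member, and other list genes given for context after their values were seen. Positions are from GENCODE 44, and promoter sequences from RefSeq. Libraries were taken as the biological replicates that the study calls them, and p-values cover no variation beyond the spread between them. In edgeR that spread is drawn partly from all genes. The weight of all genes, as prior degrees of freedom, had a median of 5.98 in the main test. In the test on every gene with a read this median was infinite. A gene's own spread then had little or no weight, which limits the p-values of ZBP1, TMEM173 and TLR9 from that test. No libraries held equal counts (0 duplicates), and replicates differed by more than sampling noise. Figures were drawn with matplotlib (3.10.9). A leukocyte marker of the original list is not reported here and was left out of the summed marker levels.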

Additional observations from a re-analysis of the deposited data

How the results depend on the processing

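IFI16 passed the test in all 17 alternatives, and MB21D1 and TFAM in 0 of 17, while TBK1 and TREX1 passed in 9 and 13 and were lower in all 17. None of the 5 members tested changed direction in any of them, and TMEM173 and ZBP1, too low for the filter, were tested only with every gene that had a read. Over every gene with a read, 1485 genes were lower and 1034 higher, against 796 and 576. DESeq2 called 932 genes and 1 member higher, and edgeR's exact test 1235 genes lower and 979 higher. With each library left out in turn, 1 to 3 members were lower and 0 to 1 higher, and the median log2 fold change of the members was -0.55 to -0.38. The genes lower then numbered 240 (without control replicate 2) to 1786 (without TFAM-OE replicate 3), those higher 66 to 1428, and the pathway genes lower 18 to 30 and higher 1 to 10. TBK1 also did not pass with scaling by library size alone (adjusted p = 0.0743) or with limma-trend on log2(FPKM + 0.1) and log2(FPKM + 1) (adjusted p = 0.0637 and 0.0693). No effect shared by replicate number was seen, as the deviations of libraries with the same number correlated at -0.318, -0.0401 and -0.404. Of 6 libraries, 0 correlated best with their own number. With 3 libraries per group, this cannot show whether libraries of the same number were handled together. With the replicate block, 1 member (IFI16) was lower, as were 285 genes, with 74 genes and 1 pathway gene higher, and TBK1 and TREX1 had edgeR adjusted p-values of 0.163 and 0.121. Depth limits TMEM173 and ZBP1, with 1 to 14 reads per library.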
